A study of Mus musculus with 12 samples.

Results

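The genes of MHC class II presentation were examined in M1-type macrophages from Ythdf2 conditional knockout (cKO) mice and from wild-type (WT) mice. The set holds 10 genes listed by name (H2-Aa, H2-Ab1, H2-Eb1, H2-DMa, H2-DMb1, Cd74, Ctss, Lgmn, Ifi30 and Rfx5), and all 10 were found among the 27013 genes of the expression table. Of these, 9 have an adjusted p in that table and 1, Ifi30, does not. The same symbols were looked up in a list of m6A peaks and in a list of YTHDF2 peaks, both from WT cells.

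MHC class II molecules display peptides from endocytosed material to CD4+ T cells. The alpha and beta chains assemble with the invariant chain, which blocks the groove and carries the complex to endolysosomes. There, proteases cut the invariant chain and the antigens, and the DM heterodimer exchanges the remaining fragment for a peptide. In macrophages, interferon gamma raises these genes through the coactivator CIITA, which acts on promoters held by the RFX complex. YTHDF2 is a protein that binds the mRNA mark N6-methyladenosine (m6A) and promotes the decay of marked transcripts.

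Bone marrow cells of C57BL/6 mice, Ythdf2 cKO or WT, were grown into macrophages with M-CSF at 20 ng/ml for 7 days and then given LPS at 100 ng/ml and interferon gamma at 20 ng/ml for 24 hours. The 12 libraries form 6 groups of 2: cKO and WT m6A immunoprecipitates, cKO and WT m6A inputs, and the YTHDF2 immunoprecipitate of WT cells with its own input. The labels do not name the Cre line behind the conditional knockout, and leave unsaid whether the 2 replicates of a group are separate animals or cultures. The p-values may therefore reflect only technical variation. No library of cells without LPS and interferon gamma was analysed here, so induction of the class II genes was not measured.

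The expression values are a comparison of cKO and WT input RNA made by the authors, with no value per library. Library depth is unknown. Each gene has a mean normalized count over the libraries, a log2 fold change with its standard error (SE), and a p-value adjusted over 10778 genes. The sources used here do not state which genotype is on top of the fold change. Ythdf2 itself was at 1.10 ± 0.16 (SE), with adjusted p 2.1e-09 by the authors' deposited table, so a positive value means the same sign as Ythdf2. If positive means more RNA in cKO cells, the positive genes were higher in cKO cells. If it means more RNA in WT cells, they were lower. In bulk RNA, fewer cells of a type and less RNA per cell cannot be told apart.

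The cells carried macrophage markers. All 9 markers fixed for macrophages, among them Adgre1 (F4/80), Csf1r and Itgam, were tested, with mean normalized counts from 2991 to 204979. Dendritic cells and B cells also carry much MHC class II. Of 8 dendritic cell markers, 7 were in the table and 0 had an adjusted p, and the highest mean count among them was 30.1 for Xcr1. Among B cell markers, Ms4a1, Cd79a and Pax5 had mean counts of 14.2, 4.26 and 1.51, while Cd79b had 49.0 and Cd22 had 529. Among neutrophil markers, Mmp8, S100a8 and S100a9 had 987, 304 and 326, while Ly6g, Cxcr2 and Retnlg had at most 6.50. Among fibroblast markers, Col1a1, Col1a2, Col3a1 and Dcn had 559, 580, 169 and 172, and Pdgfra had 7.79. Some markers moved between the genotypes: in the authors' deposited table the macrophage markers Cd68 at 0.40 ± 0.11, Itgam at −0.55 ± 0.11 and Lyz2 at −1.49 ± 0.33 passed an adjusted p of 0.05, as did Mmp8 at −0.83 ± 0.19 among 3 tested neutrophil markers and Col1a1 at 0.56 ± 0.17 among 4 tested fibroblast markers. Of the 4 tested fibroblast markers, Col3a1 alone was below 0, at −0.20 ± 0.27 in the authors' deposited table. Of the 9 macrophage markers, 7 were below 0 and 2 above, with a median of −0.19. Adgre1, at −0.38 ± 0.12, had an adjusted p of 0.056 by the authors' deposited table. The 3 tested neutrophil markers and the 2 tested B cell markers were all below 0. The part of these marker shifts in the class II values was not tested.

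Between the genotypes, 0 of the 9 tested class II genes passed an adjusted p of 0.05, against 2.32% of all tested genes (250 of 10778). At an unadjusted p under 0.05, H2-Aa was the 1 member, against 9.99% of all tested genes. The values leaned to the sign of Ythdf2: 7 of 9 were above 0, against 48.7% of all tested genes, and their median log2 fold change was 0.19, against −0.01 over all tested genes. Within the set, H2-Aa and H2-Eb1 had the highest values, and Rfx5, Lgmn, H2-DMa and Ctss lay nearest to 0.

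**Figure D1:**
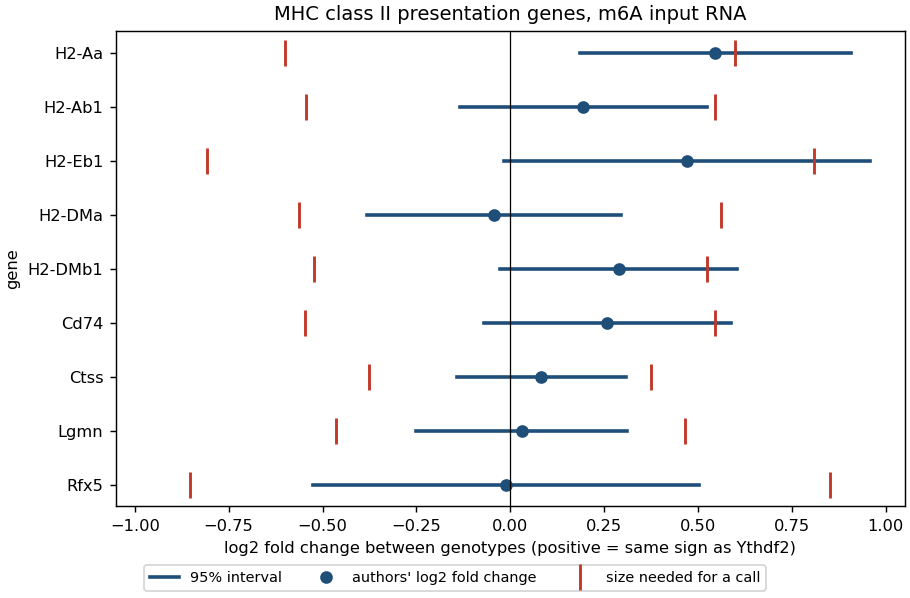
Log2 fold change between cKO and WT input RNA (x axis; positive means the same sign as Ythdf2) for the 9 tested class II genes. Dots are the authors' values, bars their 95% intervals, and red ticks the size each gene would have needed for an adjusted p under 0.05. No dot lies beyond its tick. H2-Aa, at 0.55 with a tick at 0.60, comes closest.

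The peptide-binding chains H2-Aa and H2-Eb1 had the highest values of the set. H2-Aa, which encodes the alpha chain of the I-A molecule, was at 0.55 ± 0.18 (SE) in the authors' deposited table, with a 95% interval of 0.19 to 0.91, an unadjusted p of 0.0030 and an adjusted p of 0.098. It stood at place 333 of 10778 by p, where 250 genes were called, and at its SE a value of 0.60 would have been needed for a call. H2-Eb1, the beta chain of I-E, was at 0.47 ± 0.25, with adjusted p 0.54 by the authors' deposited table. Its interval of −0.02 to 0.96 holds both no difference and a 1.94-fold difference, and a call would have needed 0.81. C57BL/6 mice carry a nonfunctional I-E alpha gene, so that their beta chain is not paired at the cell surface. H2-Ab1, the beta chain that pairs with the product of H2-Aa, was at 0.19 ± 0.17, with adjusted p 0.85 by the authors' deposited table, with an interval of −0.13 to 0.52. The mean normalized counts were 589 for H2-Aa, 349 for H2-Eb1 and 1301 for H2-Ab1. The 3 genes lie near each other at chr17:34282744-34287823, chr17:34305867-34316674 and chr17:34263227-34269418 (RefSeq, GRCm38.p6, the coordinates of mm10). The intervals of the 3 chains overlap, and the differences between them were not tested because the files hold no values per library.

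The genes of peptide exchange and of the invariant chain lay between −0.04 and 0.29, none past the threshold. H2-DMb1, the beta subunit of DM, was at 0.29 ± 0.16, with adjusted p 0.60 by the authors' deposited table. Its partner H2-DMa was at −0.04 ± 0.17 in the authors' deposited table, with an interval of −0.38 to 0.30. H2-DMb1 has a close copy, H2-DMb2, whose mean count was 24.6. How shared reads were counted is not stated in the sources used. Cd74, the invariant chain, was at 0.26 ± 0.17, with adjusted p 0.72 by the authors' deposited table, with an interval of −0.07 to 0.59. For H2-DMb1, H2-DMa and Cd74 a value between 0.52 and 0.56 would have been needed for a call. Their mean counts were 946, 691 and 2818. H2-DMb1 (chr17:34153191-34160229) and H2-DMa (chr17:34119693-34139101) lie near the chains, and Cd74 lies apart at chr18:60803849-60812652.

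The lysosomal proteases had the smallest SEs of the set. Ctss, cathepsin S, which makes the last cuts in the invariant chain, was at 0.08 ± 0.12, with adjusted p 0.96 by the authors' deposited table. Its mean normalized count was 200529, place 11 of all tested genes, and its 95% interval in fold terms ran from 0.906 to 1.24. Lgmn, asparaginyl endopeptidase (legumain), was at 0.03 ± 0.14 in the authors' deposited table, with a mean count of 86067 and an interval from 0.841-fold to 1.24-fold. When values were centred on the 25% of genes with the highest counts, Lgmn turned to −0.0085. Counts grow with transcript length as well as with abundance, so these places are not levels per length.

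Ifi30, the thiol reductase GILT that opens disulfide bonds of antigens in lysosomes, stood at −0.93 ± 2.70 (SE) in the authors' deposited table. Its mean count was 1.51 and it has no adjusted p, so the genotypes could not be compared. In the RefSeq annotation its span, chr8:70762773-70766663, lies inside that of the lncRNA gene 6330537M06Rik (chr8:70761115-70767575), which had a mean count of 0.674. The neighbouring gene Pik3r2 had 14.5. Whether reads shared by overlapping genes were dropped in counting was not tested.

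Rfx5, the DNA-binding subunit of the RFX complex, was at −0.01 ± 0.26 in the authors' deposited table. Its mean count of 203 was the lowest among the tested members, and its interval of −0.52 to 0.50 is wide. A value of 0.85 would have been needed for a call.

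**Figure D2:**
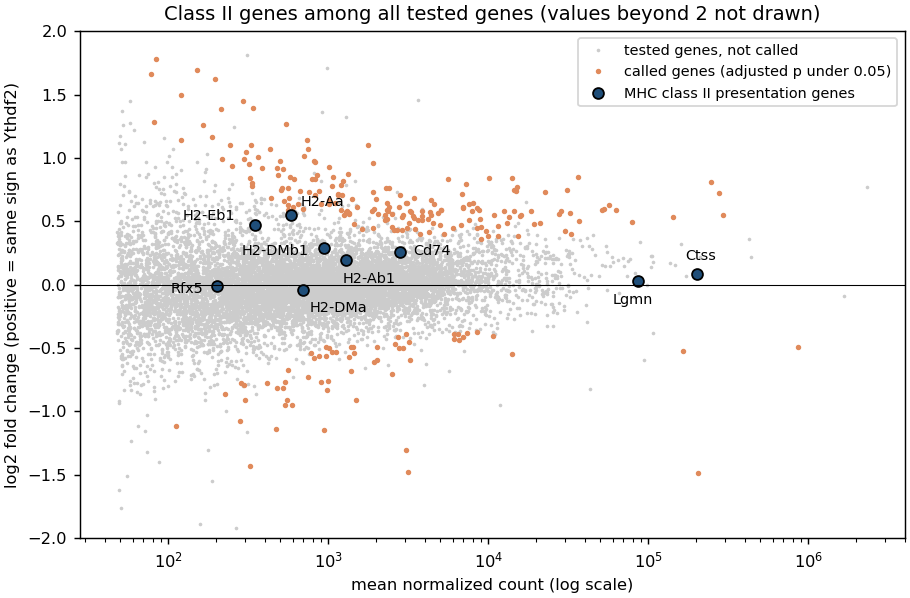
Mean normalized count (x axis, log scale) against the authors' log2 fold change (y axis; positive means the same sign as Ythdf2) for the tested genes. Orange points are called genes, and blue points the 9 tested class II genes. H2-Aa and H2-Eb1 are the highest of the 9, and Ctss and Lgmn lie near 0 at high counts.

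RFX and CIITA act at the promoters of class II genes, so the promoter sequences of H2-Aa, H2-Eb1 and H2-DMb1, the members with the highest values, are shown. Of the 10 genes, 8 had a promoter in a RefSeq table that gives 250 bases before and 50 after a transcript start (GRCm38.p6). The windows of Rfx5 and H2-DMa, and 1 of the 2 of Lgmn, belong to starts inside the gene spans given here, not to their outer ends. H2-Ab1 and Cd74 had no entry. In classical class II promoters an X box, read by RFX, stands upstream of a Y box, read by the factor NF-Y. Searched on both strands were CTNGNAAC, for part of the X box, and GATTGG, for the core of the Y box. The letters of the X part were chosen with these promoters in view, so the matches describe and test nothing. In the sequences, written 5′ to 3′ on the strand of the gene, capitals mark the matches.
H2-Aa (chr17:34287855-34287919, minus strand): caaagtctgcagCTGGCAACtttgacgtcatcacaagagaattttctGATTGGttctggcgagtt
H2-Eb1 (chr17:34305761-34305824, plus strand): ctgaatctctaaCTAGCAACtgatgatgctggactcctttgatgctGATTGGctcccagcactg
H2-DMb1 (chr17:34153082-34153146, plus strand): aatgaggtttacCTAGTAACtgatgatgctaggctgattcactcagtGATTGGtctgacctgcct

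The X part began 84, 94 and 97 bases before the start of H2-Aa, H2-Eb1 and H2-DMb1, and 27, 26 and 27 bases lay between it and the Y part. Of all 32851 promoters in the table, 13.2% held the X part, 16.1% the Y part, and 0.158% (52) both in this order on the same strand within 40 bases of each other. A gap of 25 to 28 bases was found in 6 promoters, 3 of them those of H2-Aa, H2-Eb1 and H2-DMb1. The others were those of Ift74, 1700048F04Rik and BC051142. The limits of 25 and 28 bracket the gaps of the 3 members, so this count too describes and tests nothing. In Rfx5 the pair lay on the opposite strand with 7 bases between its parts. No pair was found in the windows of H2-DMa, where 1 of 2 held GATTGG alone, nor in those of Ctss, Lgmn and Ifi30, which says only that these letters are not there. Of the 3 genes with the class II spacing, H2-Aa, H2-Eb1 and H2-DMb1 were at 0.55, 0.47 and 0.29 in the authors' deposited table, none past the threshold. These 3 were shown for their high values, and a link between motif and value was not tested.

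Ctss differed in its promoter. It held the core of the interferon-stimulated response element (GAAA, then 2 bases of any kind, then GAAA), which interferon regulatory factors bind and which 3.44% of all promoters held on either strand. The match, in capitals, lay 21 to 12 bases before the gene's start, in a window that held neither the X part nor the Y part. This match too was looked for with the promoters in view.
Ctss (chr3:95526753-95526785, plus strand): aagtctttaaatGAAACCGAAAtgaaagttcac

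In WT cells, m6A and YTHDF2 peaks were scarce in the set. Of the 9 tested members, 1 (Rfx5) had an m6A peak, against 45.4% of all tested genes, and 2 (Ctss and Lgmn) had a YTHDF2 peak, against 64.5%. By gene symbol, no member had both kinds, and Ifi30 had neither. H2-Aa, H2-Ab1, H2-Eb1, H2-DMa, H2-DMb1 and Cd74 had no peak of either kind listed. Each list is a single list for the WT group, so the peaks have no replicate check, and a gene with no listed peak may still carry the mark or be bound. All peak names in the YTHDF2 list begin with "m6a_peak", and whether the list comes from the YTHDF2 libraries was not tested.

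Peaks of both kinds were listed more often for genes with high counts. Tested genes were put in deciles by mean count. In the decile of H2-Aa and H2-DMa, m6A peaks were listed for 50.7% of genes and YTHDF2 peaks for 71.0%. These shares were 58.6% and 80.9% in the decile of H2-Ab1, and 67.3% and 89.1% in that of Cd74. For Ctss and Lgmn, in the highest decile, they were 68.4% and 89.3%, and for Rfx5 they were 29.7% and 45.8%. Added over the 9 members, the shares come to 4.85 genes with m6A and 6.71 with YTHDF2, where 1 and 2 were listed. The span of the genes was set beside this. The 6 members without peaks span 5.08 to 19.4 kb, with H2-DMa the longest and H2-Eb1 next at 10.8 kb. In all, 2317 tested genes lay within the count range of these 6 (349 to 2818) and were no longer than 19.4 kb. Of them, m6A peaks were listed for 51.1%, YTHDF2 peaks for 72.0% and neither for 16.1%. The span includes introns and is not transcript length. These shares are descriptions, with the limits on count and span set after the values were seen.

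**Figure D3:**
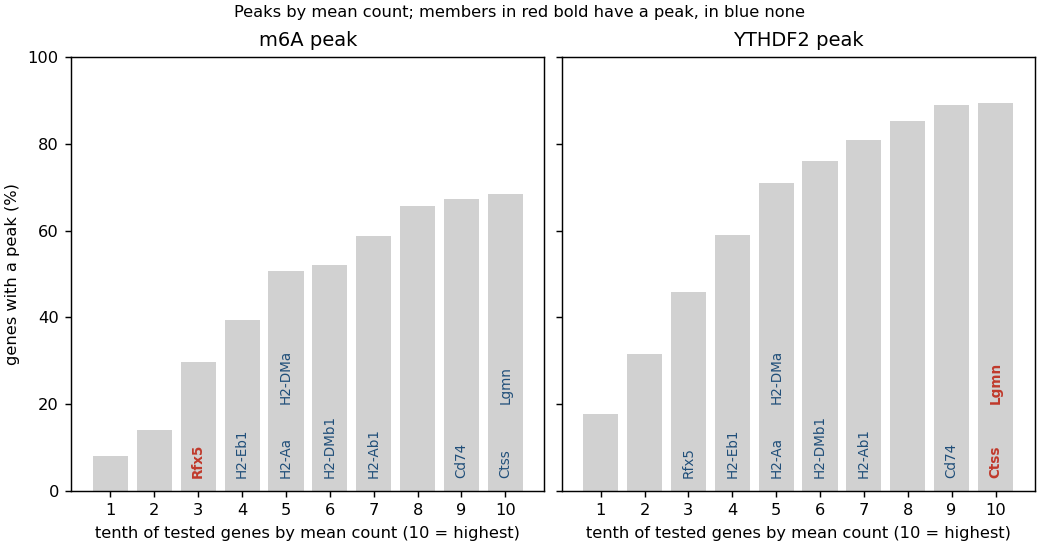
Share of tested genes with an m6A peak (left) and with a YTHDF2 peak (right) in each decile of genes by mean normalized count (x axis, 10 is highest). Class II genes are written in their decile, red and bold where they have a peak and blue where they have none. Rfx5 carries the m6A peak, and Ctss and Lgmn the YTHDF2 peaks.

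Rfx5 carried its m6A peak at chr3:94958815-94959039 (mm10, plus strand), 225 bases wide. The peak began 8.13 kb into a gene span of 10.9 kb, and its middle lay at 75.8% of the span. It overlapped no YTHDF2 peak, and Rfx5 had none listed, so the missing overlap adds nothing on position. Over all genes, 49.0% of 9289 m6A peaks that could be placed on a chromosome overlapped one. The list gives no level or p for an m6A peak. Of the other RFX subunits, Rfxap had 4 m6A peaks and no YTHDF2 peak, and Rfxank had 1 YTHDF2 peak and no m6A peak.

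Ctss and Lgmn each had 2 YTHDF2 peaks, with 2 of the 4 summits in a 3′ UTR, 1 in coding sequence and 1 at the edge of an intron. The fold enrichment and −log10 q of each peak are the authors' own. In Ctss (plus strand), the peak at chr3:95545183-95545423 had its summit in coding sequence, 34 bases into the exon, with a fold enrichment of 2.01 and a −log10 q of 15.7. The second, at chr3:95555962-95556235, had its summit in the 3′ UTR, 15 bases past the end of the coding sequence, with 1.58 and 6.61. In Lgmn (minus strand), the peak at chr12:102394191-102394725 had its summit in the 3′ UTR, with 2.20 and 24.6. The other, at chr12:102395764-102395969, had its summit 2 bases inside an intron of the listed transcript, next to a coding exon, with 2.52 and 22.0.

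By fold enrichment all 4 peaks lay below the middle of the list. The fold enrichment of the list had a median of 3.01, and these peaks stood at percentiles 7.28 and 0.353 for Ctss and 14.1 and 27.5 for Lgmn. By −log10 q the order was different: the Lgmn peaks stood at percentiles 87.9 and 82.5 and those of Ctss at 61.1 and 15.9. Peaks of genes in the highest decile by mean count had a median fold enrichment of 2.46, against 4.26 in the lowest decile, and a median −log10 q of 15.9, against 7.95.

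**Figure D4:**
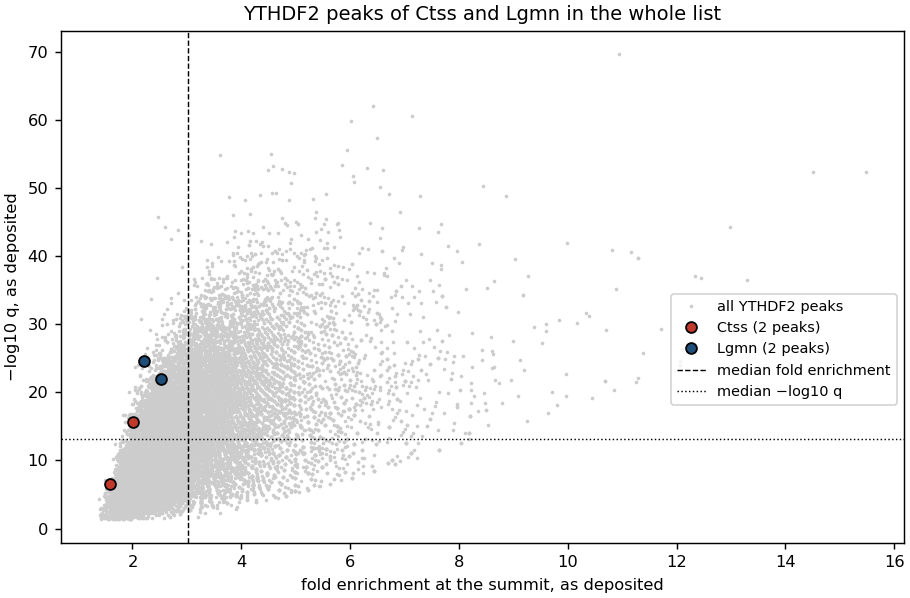
Fold enrichment at the summit (x axis) against −log10 q (y axis) for all 17843 YTHDF2 peaks, both as deposited. The 2 peaks of Ctss (red) and 2 of Lgmn (blue) lie left of the dashed line, the median fold enrichment of 3.01; 3 of them lie above the dotted line, the median −log10 q of 13.2.

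**Figure D5:**
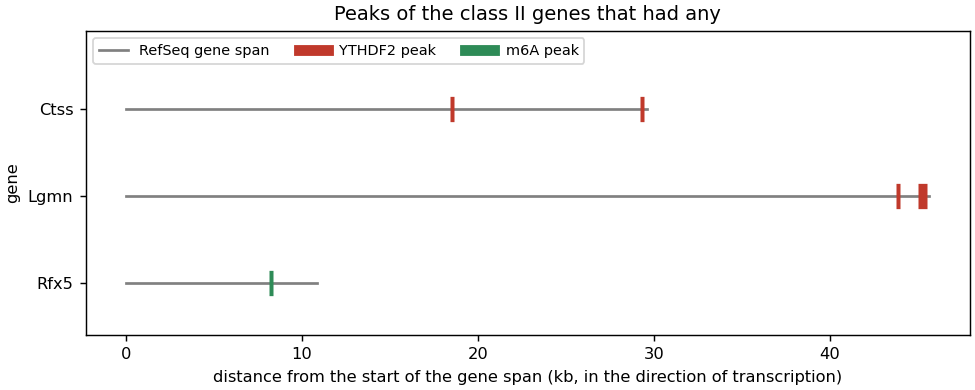
Position of the peaks along Ctss, Lgmn and Rfx5, as distance from the start of the RefSeq gene span in kb. Red blocks are YTHDF2 peaks and the green block is the m6A peak. Ctss has 1 peak at its 3′ end and 1 at 18.4 kb, both Lgmn peaks lie between 43.8 and 45.5 kb, and the Rfx5 m6A peak starts at 8.13 kb.

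On the spans of H2-DMa and Ctss, 2 further peaks were listed under the symbols of other genes, so they are not in the counts of members with peaks. A YTHDF2 peak of Brd2, a chromatin reader whose RefSeq span overlaps that of H2-DMa, covered 336 bases of the H2-DMa span (chr17:34118740-34120028, fold enrichment 1.76). An m6A peak of the pseudogene Hmgb1-ps5 (chr3:95530843-95530967) lay within the span of Ctss.

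Other genes of class II expression and antigen processing gave no calls between the genotypes. Of 25 listed, 24 were in the table and 19 were tested. Of these 19, 0 passed an adjusted p of 0.05, against 2.32% of all tested genes. At an unadjusted p under 0.05 there were also 0, against 9.99% of all tested genes. Their median log2 fold change was 0.09, with 14 of 19 above 0. The least precise was the protease Ctsl, at −0.60 ± 0.55 in the authors' deposited table, with an interval of −1.68 to 0.48. The smallest p-values belonged to the lysosomal proteases Ctsb at 0.21 ± 0.12, Ctsd at 0.18 ± 0.11 and Ctsz at 0.19 ± 0.11 and to the tetraspanin Cd82 at 0.22 ± 0.15 (adjusted p 0.57 to 0.78) in the authors' deposited table. Ciita, which encodes the coactivator of class II genes, was at −0.19 ± 0.78 in the authors' deposited table, with a mean count of 16.9 and without an adjusted p. Also without an adjusted p were H2-Oa and H2-Ob, the DO chains that restrain DM, at mean counts of 18.4 and 17.3.

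The 5 cathepsins listed besides Ctss, all in the highest decile by mean count, had YTHDF2 peaks, as did 89.3% of the genes in that decile: 6 each in Ctsb and Ctsd, 4 in Ctsl, 3 in Ctsz and 1 in Ctsh. Of these, Ctsb and Ctsz also had 1 m6A peak each. Over the 19 tested accessory genes, m6A peaks were listed for 8 and YTHDF2 peaks for 13, against 45.4% and 64.5% of all tested genes. In the highest decile by mean count, which holds many of these genes, the shares were 68.4% and 89.3%. Marchf1, a ubiquitin ligase that sends surface class II to degradation, had 2 m6A peaks and no YTHDF2 peak, and was at −0.13 ± 0.17, with adjusted p 0.95 by the authors' deposited table.

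Genes of the interferon gamma pathway, which also induces class II, gave calls. Of 17 tested, 5 passed with the sign of Ythdf2 and 0 with the opposite sign, against 1.76% of all tested genes on the side of Ythdf2. In the highest decile by mean count, where most of the list lies, 6.86% of genes were called in either direction. The list was chosen with earlier results of these data known. At an unadjusted p under 0.05 there were 6, against 9.99% of all tested genes. The median log2 fold change of the 17 was 0.16, with 13 above 0. For the 9 class II members these were 0.19 and 7. A call needed a value of 0.34 to 0.57 in this list, and of 0.375 to 0.85 among the class II members. In the authors' deposited table Gbp5 was at 0.64 ± 0.12, Gbp2 at 0.58 ± 0.12, Cxcl9 at 0.62 ± 0.15, Cxcl10 at 0.55 ± 0.13 and Cd274 at 0.42 ± 0.10 (adjusted p 4.9e-05 to 0.0058). The first pair are guanylate-binding proteins, Cxcl9 and Cxcl10 draw T cells, and Cd274 encodes PD-L1. The kinases Jak1 and Jak2 were at 0.21 ± 0.11 and 0.16 ± 0.13 in the authors' deposited table. Nos2, the inducible nitric oxide synthase, was at 0.24 ± 0.14, with adjusted p 0.62 by the authors' deposited table. H2-Aa and Cxcl10 were both at 0.55 in the authors' deposited table, with an SE of 0.18 for H2-Aa and 0.13 for Cxcl10, and mean counts of 589 and 10876. Of these 17 genes, 14 carried m6A peaks and 15 YTHDF2 peaks, against 45.4% and 64.5% of all tested genes and 68.4% and 89.3% of genes in the highest decile by mean count, which holds most of the list. The difference between this list and the class II genes was not tested.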

How the data were processed

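The files hold 3 tables, 0 of them with values per library. The members and the gene lists were chosen with earlier results of these data known. The expression table has the column names of DESeq2 results, per the file headers: the mean normalized count (a signal averaged over libraries by the authors), the log2 fold change and its SE as deposited by the authors, a Wald statistic (a score, as deposited) and the p-value and adjusted p-value as deposited. A Benjamini-Hochberg adjustment over the 10778 tested genes gave the deposited adjusted values. The lowest mean count among these genes was 48.0. No count test could be run, so every call is the authors'. The design foresaw counts per library.

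The m6A peaks are named after exomePeak2, per the labels. The YTHDF2 list gives a fold enrichment (a ratio), a −log10 q and a score, as deposited by the authors; the sources used here do not name its peak caller. HISAT2, HOMER, ChIPseeker and mm10 appear, with roles unstated, in the submitters' processing notes. Repeated rows were merged to 17843 peaks. Where several features covered a summit, a 3′ UTR was taken before coding sequence, then a 5′ UTR, then an intron. Symbols were matched directly or through RefSeq synonyms. Coordinates are 1-based.

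Intervals are 95% Wald intervals. The value needed for a call is 3.25 times the SE, from the largest unadjusted p among called genes (0.0011). The adjustment step was tested on simulated data, and an overlap function on intervals written by hand. Python 3.11.15, pandas 2.3.3 and scipy 1.17.1 were used. Named genes were all members, Ythdf2, Ciita and, from each list, the called genes and the 4 next smallest p-values (some are not reported here); other genes named for their peaks, position or count were chosen after their values were seen.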

Additional observations from a re-analysis of the deposited data

How the results depend on the processing

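No paired analysis was possible because the files hold no values per library. For the same reason the fits without each replicate and those with edgeR's or DESeq2's normalization were not run. The count of 0 called class II genes was the same with no filter on low counts, with values centred on the median of the 25% of genes with the highest counts (0.04) and with values centred on that of all tested genes. A minimum of 1.5-fold can only remove calls and says nothing about this count. Over these 3 settings and the deposited values, the adjusted p of H2-Aa ranged from 0.091 to 0.24, and the lowest for any other member was 0.53. The 0.24 came with no filter. That setting keeps each p and adjusts over more genes, so it says little about calls that might be gained. Of 69 alternatives for single genes, 68 kept direction and side of the threshold. Leaving out the filter keeps each fold change, so direction could not turn there. The centre of all tested genes was −0.005, so centring on it barely moved the values. Lgmn turned to −0.0085 with centring on abundant genes. The count of 5 called interferon gamma genes became 2 with a minimum of 1.5-fold, by construction, and was 5 otherwise. The count of members with an m6A peak was 1 also with peaks of at most 1000 bp. The count with a YTHDF2 peak was 2 also with a −log10 q of at least 5, a fold enrichment of at least 2, or summits in exons. The 3 other overlap rules are stricter than 1 bp, so the count of 0 overlaps for the m6A peak of Rfx5 could not change under them. For H2-Eb1 and Rfx5, the tested members with the lowest counts, only differences of at least 0.81 and 0.85 (log2) could have been called.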
